A study of Homo sapiens with 6 samples.

Results

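The genes described here act on the alpha subunit of eIF2, the factor that brings the initiator tRNA to the ribosome. They are the 4 eIF2 kinases EIF2AK1, EIF2AK2, EIF2AK3 and EIF2AK4 and the 2 phosphatase subunits PPP1R15A and PPP1R15B. They were chosen by gene symbol and not by a rule on their values, but with earlier results of these data known. All 6 were found among the 58735 genes of the deposited tables, and all 6 passed the expression filter that left 14179 genes for testing. The series holds 3 sgCtrl and 3 sgNF2-1 RNA libraries of H2452, a cell line established from a human pleural mesothelioma. Both groups were grown in RPMI-1640 medium with serum and antibiotics, and both carried a lentiviral vector with Cas9, an sgRNA and mCherry, for which the cells were sorted. The sgRNA was scrambled in sgCtrl (labelled wild type) and directed against NF2 in sgNF2-1 (labelled NF2 knockout). The sorted cells are not said to be a clone, and 1 NF2 guide was used. The study's methods call its replicates biological in general, but the labels do not say whether these 3 libraries of a group came from separate cultures, so p-values measure the spread between these samples.

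When eIF2 alpha is phosphorylated, it blocks its own exchange factor eIF2B, general translation falls, and a few mRNAs with upstream open reading frames, among them that of ATF4, are translated more. Each kinase senses a different stress: EIF2AK1 (HRI) responds to low heme and to a mitochondrial signal, EIF2AK2 (PKR) to double-stranded RNA, EIF2AK3 (PERK) to unfolded proteins in the endoplasmic reticulum, and EIF2AK4 (GCN2) to uncharged tRNA when amino acids are short. PPP1R15A (GADD34) and PPP1R15B (CReP) bring protein phosphatase PP1 to eIF2 and reverse the mark. PPP1R15A is induced by stress as a feedback step, whereas PPP1R15B is regarded as the constitutive subunit. The measurements below are RNA levels, and neither phosphorylation nor protein is part of these files.

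PPP1R15A had the largest difference of the 6 genes in these libraries, so the DNA upstream of it is shown beside that of its constitutive counterpart PPP1R15B and of EIF2AK3, the kinase gene that fell. The sequences are from RefSeq (GRCh38.p14), are written 5′ to 3′ on the strand of the gene, and end 1 base before the RefSeq start or, where that start lies inside the gene of the count table, 1 base before that gene. PPP1R15A is given for chr19:48872171-48872391 (plus strand), PPP1R15B for chr1:204411818-204412067 (minus strand) and EIF2AK3 for chr2:88627577-88627714 (minus strand). For EIF2AK2, a gene known to be induced by interferon, the 30 bases around a match near the start are given for chr2:37156969-37156998 (minus strand). Unlike the other sequences, these 30 bases lie inside the gene of the count table. Capitals mark matches to the searched motifs.
PPP1R15A: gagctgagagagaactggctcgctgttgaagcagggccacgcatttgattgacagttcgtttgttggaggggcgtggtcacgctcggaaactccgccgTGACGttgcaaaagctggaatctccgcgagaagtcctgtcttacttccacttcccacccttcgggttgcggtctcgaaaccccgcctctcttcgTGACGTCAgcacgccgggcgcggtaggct
PPP1R15B: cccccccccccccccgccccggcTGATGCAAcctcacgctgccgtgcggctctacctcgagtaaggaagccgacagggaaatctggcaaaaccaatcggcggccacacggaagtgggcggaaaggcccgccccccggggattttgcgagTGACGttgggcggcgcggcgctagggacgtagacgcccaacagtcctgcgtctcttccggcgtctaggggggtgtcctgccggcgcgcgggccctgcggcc
EIF2AK3: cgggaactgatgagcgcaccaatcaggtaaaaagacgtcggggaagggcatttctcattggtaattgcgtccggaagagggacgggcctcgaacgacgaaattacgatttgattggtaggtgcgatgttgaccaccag
EIF2AK2: ggagtccaagggGAAAACGAAActgagaac

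The window searched ran from 250 bases before to 50 bases after each RefSeq start, on both strands, and 5 of the 6 genes had one. The motifs were the full cyclic AMP response element TGACGTCA, its core TGACG (contained in the full element), a C/EBP-ATF composite element of the letters TGATGCAA, the endoplasmic reticulum stress element (CCAAT, 9 free bases, CCACG), the interferon-stimulated response element core (GAAA, 2 free bases, GAAA), the TEAD site GGAATG and the AP-1 site TGANTCA. The PPP1R15A window held a full cyclic AMP response element 58 bases before the start, which 1.84% of 34943 promoters hold, and a further core 152 bases before it. PPP1R15B had a core 101 bases before its start, as 24.5% of promoters do, and the composite element TGATGCAA 227 bases before it, which 0.87% hold. In EIF2AK2 the interferon element core matched from 6 bases before the RefSeq start (3.57% of promoters). That start lies 85 bases inside the gene of the count table, so the match lies within that gene. EIF2AK4 held a TEAD site 224 bases before its start on the other strand (14.0% of promoters) and an AP-1 site 212 bases before it (7.72%). No searched motif was found in the EIF2AK3 window, and the endoplasmic reticulum element, held by 0.0773% of promoters, was found in none of the 5. These are matches of letters only.

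The leaders of the mRNAs, the stretches before the start codon, also differ, and are shown because translation under eIF2 phosphorylation can depend on upstream start codons. In the principal transcripts of GENCODE release 29, the PPP1R15A leader of 269 bases holds 2 upstream ATGs, which open frames of 22 and 26 codons starting 206 and 107 bases before the main ATG. PPP1R15B has a leader of 380 bases with 2 upstream ATGs, opening frames of 8 and 51 codons at 279 and 231 bases before the main ATG. Both start contexts of each gene and its main start are given with the ATG in capitals.
PPP1R15A upstream 1: gatcttATGcaag
PPP1R15A upstream 2: ggtgagATGaacg
PPP1R15A main: agacacATGgccc
PPP1R15B upstream 1: ctatccATGgtgt
PPP1R15B upstream 2: gccaggATGgaag
PPP1R15B main: aaggagATGgagc

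Among the kinases, EIF2AK3 had 5 upstream ATGs in a leader of 302 bases, 4 of them with a frame that ends in the leader and 1 with a frame that runs past the main start. EIF2AK2 had 1, of 5 codons, in 323 bases. EIF2AK1 and EIF2AK4 had 0 upstream ATGs in leaders of 147 and 43 bases. The background was 14173 protein-coding genes with a principal transcript in the annotation, not limited to the tested genes. Of these, 51.0% had at least 1 upstream ATG, 31.8% had at least 2, and the median leader was 180 bases.

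The libraries held 14782423 to 17416463 counts, and library pairs of the same group differed by more than counting noise (chi-square per degree of freedom 5.12 to 12.6), so none was counted as a duplicate. NF2, the targeted gene, had 1162, 1197 and 1025 counts in sgCtrl and 692, 802 and 590 in sgNF2-1, or -0.69 as a log2 fold change (standard error, SE, 0.10; edgeR adjusted p = 7.9e-06). RNA of the targeted gene thus remained in the libraries labelled knockout. Of the mesothelial markers, the keratins KRT8, KRT18 and KRT19 were abundant, MSLN was at 36.4 CPM in sgCtrl, and CALB2 and UPK3B were low, at 4.33 and 2.31 CPM. In sgNF2-1, 2 of the 8 markers rose (MSLN and KRT18) and 3 fell (PDPN, KRT19 and WT1). WT1 went from 10.0 CPM in sgCtrl to 4.86 CPM in sgNF2-1. PTPRC and CDH1 had 0 counts in every library, and CD3E, CD68, VWF and EPCAM had 9 or fewer. PECAM1, an endothelial marker, was at 6.31 CPM in sgCtrl and fell by 2.28 on the log2 scale, while CDH5, the other endothelial marker tested, was at 0.898 CPM in sgCtrl and 1.18 CPM in sgNF2-1 (log2 fold change 0.37, adjusted p = 0.53 by edgeR). The share of counts from mitochondrial genes was 2.65% to 3.69% in sgCtrl and 3.67% to 4.67% in sgNF2-1, and its part in the results below was not tested. sgNF2-1 replicate 3 had the smallest total and the lowest level of the 6 libraries for EIF2AK1, EIF2AK2, EIF2AK3 and PPP1R15B, so values without it are given where they matter.

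One kinase gene and one phosphatase gene passed the test between the groups, in opposite directions. PPP1R15A rose about 2.09-fold in sgNF2-1 and EIF2AK3 fell to 0.611 of its sgCtrl level, while EIF2AK1, EIF2AK2, EIF2AK4 and PPP1R15B did not pass. The test was edgeR's quasi-likelihood test with Benjamini-Hochberg adjustment over the 14179 genes and an adjusted p under 0.05. By the same rule 17.7% of all tested genes were higher in sgNF2-1 and 16.6% were lower, together 34.3%, so 2 of 6 genes passing is near the background. Both also exceeded a log2 fold change of 0.5, which 8.42% of tested genes did upwards and 9.32% downwards. The CPM ranges of the groups did not overlap for the same 2 genes, against 45.3% of all tested genes. Levels are given as CPM, the gene's count relative to its library total after scaling by TMM, a correction for differences in composition. In bulk RNA, fewer cells with a transcript and less of it per cell cannot be told apart.

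**Figure D1:**
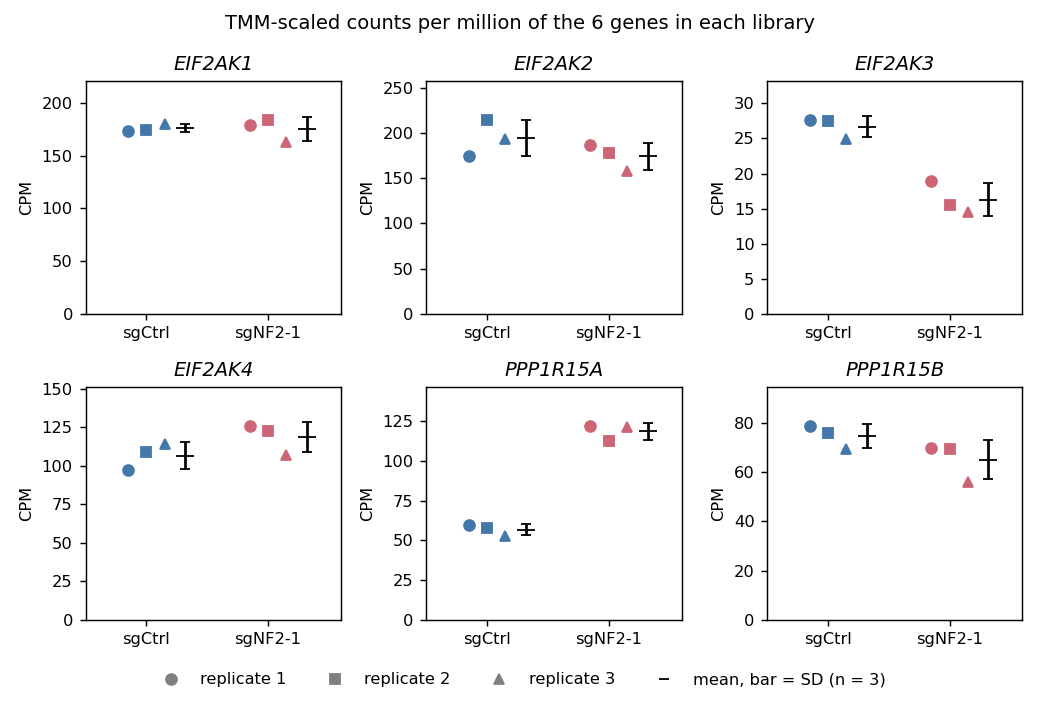
CPM (vertical axes from 0) of each of the 6 genes in the 3 sgCtrl and 3 sgNF2-1 libraries, with a marker shape for each replicate and the mean and SD beside each group. The groups are separate for PPP1R15A (52.9 to 59.9 against 112.7 to 122.2 CPM) and EIF2AK3 (24.9 to 27.7 against 14.5 to 18.9 CPM) and overlap for the other 4 genes.

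PPP1R15A (ENSG00000087074, chr19:48872392-48876057, plus strand, GRCh38, 3 exons), the stress-induced phosphatase subunit, had 944, 947 and 803 counts in sgCtrl and 2150, 1740 and 1730 in sgNF2-1. As CPM these are 59.9, 57.7 and 52.9 against 122.2, 112.7 and 121.5. Every sgNF2-1 library was above every sgCtrl library, with a wide gap between the groups. The mean was 56.8 ± 3.57 CPM in sgCtrl and 118.8 ± 5.26 CPM in sgNF2-1 (SD, n = 3 each), a rise with a log2 fold change of 1.06 (SE 0.09, 95% interval 0.89 to 1.24, adjusted p = 7.0e-10 by edgeR). It ranked 301 from the highest log2 fold change of the 14179 genes. The two-sided exact permutation test on CPM gave p = 0.10, the smallest that 3 libraries against 3 allow. No other annotated gene overlaps PPP1R15A.

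PPP1R15B (ENSG00000158615, chr1:204403387-204411791, minus strand, 2 exons), the constitutive subunit, had 78.7, 75.7 and 69.1 CPM in sgCtrl and 69.6, 69.4 and 55.8 CPM in sgNF2-1. The groups overlapped, since sgNF2-1 replicates 1 and 2 lay just above sgCtrl replicate 3, and only sgNF2-1 replicate 3 was lower than all others. Means were 74.5 ± 4.89 and 64.9 ± 7.88 CPM (SD, n = 3 each), with a log2 fold change of -0.20 (SE 0.10, 95% interval -0.39 to -0.00037, unadjusted p = 0.0496, adjusted p = 0.11 by edgeR). With 1 library left out, the log2 fold change ranged from -0.25 without sgNF2-1 replicate 1 (adjusted p = 0.11 by edgeR) to -0.10 without sgNF2-1 replicate 3 (0.44). A fall of this subunit therefore did not pass the test, and the interval leaves room for one of up to -0.39.

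EIF2AK3 (ENSG00000172071, chr2:88556741-88627576, minus strand, 17 exons), the kinase of the endoplasmic reticulum membrane, had 436, 452 and 378 counts in sgCtrl and 332, 239 and 206 in sgNF2-1. In CPM it was at 27.7, 27.5 and 24.9 in sgCtrl and at 18.9, 15.5 and 14.5 in sgNF2-1. All sgNF2-1 libraries were below all sgCtrl libraries, and their spread was wider, with a coefficient of variation of 14.2% against 5.82%. The mean was 26.7 ± 1.55 CPM in sgCtrl and 16.3 ± 2.30 CPM in sgNF2-1 (SD, n = 3 each), a fall with a log2 fold change of -0.71 (SE 0.12, 95% interval -0.96 to -0.46, adjusted p = 6.3e-05 by edgeR). Leaving out sgNF2-1 replicate 3 gave -0.63 (adjusted p = 0.00086 by edgeR). The two-sided exact permutation p was 0.10, again the smallest possible. The antisense gene AC062029.1 overlaps it and had a mean of 28.7 counts in both groups. A second antisense gene there, AC104134.1, had at most 2 counts.

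EIF2AK1 (ENSG00000086232, chr7:6022244-6059230, minus strand), the heme-regulated kinase, had the smallest difference of the 6. Its CPM values were 173.7, 174.7 and 180.4 in sgCtrl and 179.5, 184.1 and 162.9 in sgNF2-1, with the highest and the lowest value both in sgNF2-1. The log2 fold change was -0.01 (SE 0.08, 95% interval -0.17 to 0.16, adjusted p = 0.96 by edgeR). AIMP2, which overlaps EIF2AK1 on the opposite strand, went from a mean of 634 to 988 counts. The library kit named does not mark strand, so reads of such partners cannot be told apart where the genes overlap.

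EIF2AK2 (ENSG00000055332, chr2:37099210-37157065, minus strand), the double-stranded RNA sensor, was at 174.9, 214.9 and 193.3 CPM in sgCtrl and at 187.4, 178.1 and 157.8 CPM in sgNF2-1. The ranges overlapped, with sgCtrl replicate 1 below 2 of the sgNF2-1 libraries. Its log2 fold change was -0.16 (SE 0.09, 95% interval -0.34 to 0.03, adjusted p = 0.19 by edgeR), and it ranged from -0.23 without sgCtrl replicate 1 (adjusted p = 0.083 by edgeR) to -0.08 without sgCtrl replicate 2 (0.62), with -0.09 without sgNF2-1 replicate 3 (0.51). GPATCH11 overlaps it on the opposite strand, with a mean of 192 counts in sgCtrl and 155 in sgNF2-1.

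EIF2AK4 (ENSG00000128829, chr15:39934146-40035591, plus strand), the amino acid sensor, was at 97.0, 108.6 and 114.0 CPM in sgCtrl and at 125.8, 122.5 and 107.2 CPM in sgNF2-1. Only sgNF2-1 replicate 3 lay within the sgCtrl range. The log2 fold change was 0.15 (SE 0.09, 95% interval -0.03 to 0.34, adjusted p = 0.19 by edgeR), and it ranged from 0.09 without sgCtrl replicate 1 (adjusted p = 0.53 by edgeR) to 0.22 without sgNF2-1 replicate 3 (0.055). For the 3 kinases that did not pass, the intervals leave room for changes of up to -0.34 (EIF2AK2) and 0.34 (EIF2AK4) on the log2 scale.

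**Figure D2:**
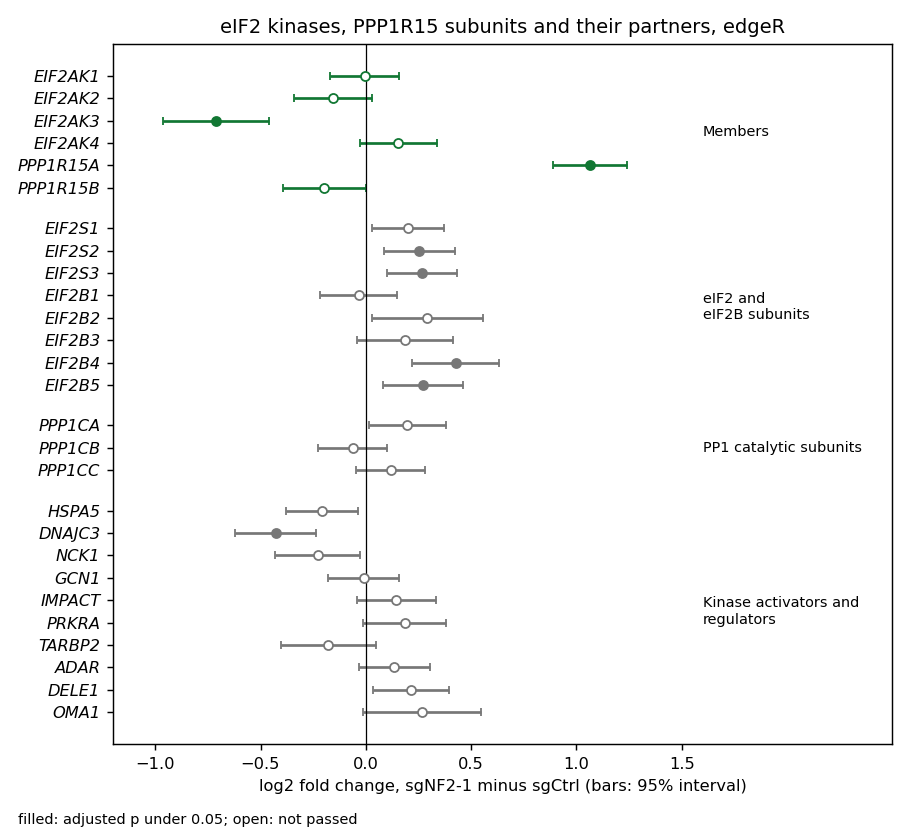
Log2 fold changes (sgNF2-1 minus sgCtrl, horizontal axis) with 95% intervals from edgeR for the 6 genes, labelled Members, and for the eIF2 and eIF2B subunits, the PP1 catalytic subunits and the kinase activators and regulators. Filled points passed an adjusted p under 0.05: PPP1R15A at 1.06 and EIF2AK3 at -0.71 lie outside the range of all 21 partner genes.

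Levels of different genes were compared per length, as the authors' FPKM. The gene length given with the counts was 11957 bases for EIF2AK4, against 5499 bases in its principal transcript. For PPP1R15B both were 5227 bases. The place of EIF2AK4 in the order below thus depends on the length used, and an order by transcript length was not made. In sgCtrl the order was EIF2AK1 (30.1 ± 0.581 FPKM), PPP1R15A (17.4 ± 1.11), EIF2AK2 (17.1 ± 1.78), PPP1R15B (13.5 ± 0.900), EIF2AK4 (8.44 ± 0.684) and EIF2AK3 (4.66 ± 0.277; SD, n = 3 each). PPP1R15A and EIF2AK2 did not differ there beyond their spread, and the ranges of the other neighbours did not overlap. In sgNF2-1 PPP1R15A stood first at 36.1 ± 1.51 FPKM, above EIF2AK1 at 29.7 ± 1.94, and the other 5 stood in the same order as in sgCtrl, with EIF2AK3 last at 2.81 ± 0.397 FPKM. No neighbours overlapped in sgNF2-1. On log2(FPKM + 1), limma gave a difference of 1.01 for PPP1R15A (SE 0.08, adjusted p = 0.00038) and -0.57 for EIF2AK3 (SE 0.09, adjusted p = 0.0055). The other 4 genes had limma adjusted p-values from 0.19 to 0.86, and 26.8% of the 13038 genes in that test passed.

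The balance between the 2 phosphatase subunits differed between the groups in every library. The ratio of PPP1R15A to PPP1R15B FPKM was 1.29 in each of the 3 sgCtrl libraries and 2.97, 2.75 and 3.68 in sgNF2-1, with no overlap. Their summed level went from 30.9 ± 2.01 to 47.7 ± 1.57 FPKM (SD, n = 3 each). Against EIF2AK3, PPP1R15A was at 3.80, 3.68 and 3.73 times its FPKM in sgCtrl and at 11.4, 12.8 and 14.8 times in sgNF2-1. The summed FPKM of the 4 kinases overlapped between the groups, at 57.6 to 62.3 in sgCtrl and 52.2 to 59.8 in sgNF2-1. EIF2AK3 made up 7.10% to 8.38% of that sum in sgCtrl and 4.54% to 5.45% in sgNF2-1. The EIF2AK4 share was 13.4% to 14.8% in sgCtrl and 16.1% to 16.5% in sgNF2-1, and EIF2AK1 and EIF2AK2 held mean shares of 49.9% and 28.4% in sgCtrl and 52.1% and 26.7% in sgNF2-1. A share of a sum can rise where the other kinases fall, and the EIF2AK4 share also depends on the gene length used. The level of EIF2AK4 itself overlapped between the groups and did not pass (adjusted p = 0.19 by edgeR). These ratios and shares are descriptions and were not tested.

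**Figure D3:**
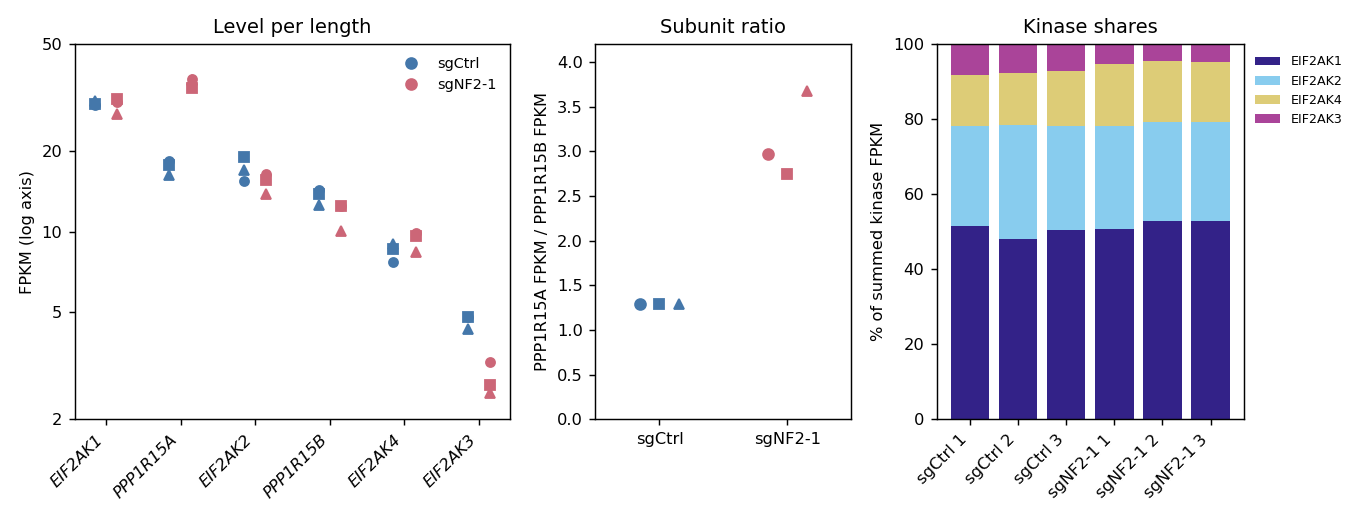
FPKM of the 6 genes in each library (left, log axis), the ratio of PPP1R15A to PPP1R15B FPKM (middle, axis from 0) and the share of each kinase in the summed kinase FPKM of each library (right, %), with marker shapes for replicates 1 to 3 as circle, square and triangle. PPP1R15A moved from below to above EIF2AK1, the ratio went from 1.29 to between 2.75 and 3.68, and EIF2AK3 was the smallest share in all 6 libraries.

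Of the 8 eIF2 and eIF2B genes tested, 4 rose, 0 fell and 4 did not pass, with a median log2 fold change of 0.26 against -0.00 over all tested genes. Beside this and the list counts below, 17.7% of all tested genes rose and 16.6% fell by the same rule. The 4 that rose were EIF2B4 (0.43, adjusted p = 0.0017 by edgeR) and EIF2B5 (0.27, 0.023), the regulatory and catalytic subunits of the exchange factor, and EIF2S3 (0.27, 0.011) and EIF2S2 (0.25, 0.017), the gamma and beta subunits of eIF2. EIF2S1, which encodes the alpha subunit that the kinases phosphorylate, went from 81.2 ± 2.96 to 93.4 ± 3.67 CPM (SD, n = 3 each; log2 fold change 0.20, adjusted p = 0.061 by edgeR) and did not pass. EIF2B2 (0.29), EIF2B3 (0.19) and EIF2B1 (-0.03) did not pass either. None of the 8 reached a log2 fold change of 0.5, and 2 rather than 4 rose without sgCtrl replicate 2, without sgNF2-1 replicate 1 or without sgNF2-1 replicate 2.

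PP1 supplies the catalytic activity that both PPP1R15 proteins direct. None of its 3 catalytic genes passed: PPP1CA had a log2 fold change of 0.20 (adjusted p = 0.091 by edgeR), PPP1CC of 0.12 (0.28) and PPP1CB of -0.06 (0.58). PPP1CB was at 179.2 ± 11.3 CPM in sgCtrl and 171.6 ± 1.73 CPM in sgNF2-1, and the ranges of the groups did not overlap for PPP1CC alone. Among all 27 tested genes whose symbol begins with PPP1R, a set chosen after the values were seen, 8 rose and 3 fell with a median of 0.10, and PPP1R15A had the highest log2 fold change, ahead of PPP1R13L at 0.97.

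Of 10 genes that activate or restrain the kinases, 0 rose, 1 fell and 9 did not pass (median log2 fold change 0.06). DNAJC3, a co-chaperone of the endoplasmic reticulum that is known to restrain EIF2AK3 and EIF2AK2, fell from 60.8 ± 2.46 to 45.2 ± 3.53 CPM (SD, n = 3 each; log2 fold change -0.43, SE 0.09, adjusted p = 0.00080 by edgeR). HSPA5, the chaperone that binds the lumenal part of EIF2AK3 in resting cells, was at 1024 CPM in sgCtrl and 886.5 CPM in sgNF2-1 (log2 fold change -0.21, adjusted p = 0.056 by edgeR). DELE1 and OMA1, which carry the mitochondrial signal to EIF2AK1, had log2 fold changes of 0.21 (adjusted p = 0.062 by edgeR) and 0.27 (0.14). Of 3 genes for the other sensors of endoplasmic reticulum stress, 1 rose and 2 did not pass. ERN1 (IRE1) rose from 14.9 ± 1.41 to 22.7 ± 1.44 CPM (SD, n = 3 each; log2 fold change 0.61, adjusted p = 0.00037 by edgeR). ATF6 (0.21, adjusted p = 0.067 by edgeR) and its relative ATF6B (-0.01, 0.96) did not pass.

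Downstream of eIF2, 8 of 12 genes of the ATF4 branch rose, 1 fell and 3 did not pass, with a median log2 fold change of 0.75. Over all tested genes 17.7% rose and 16.6% fell. SESN2, which restrains growth signalling when leucine is short, rose from 32.1 to 122.5 CPM (log2 fold change 1.93), the pseudokinase gene TRIB3 from 182.7 to 673.2 CPM (1.88) and the transcription factor gene ATF3 from 10.9 to 54.7 CPM (2.33). VLDLR, a lipoprotein receptor, fell (-0.34, adjusted p = 0.022 by edgeR). PPP1R15A, whose log2 fold change of 1.06 lies inside the range of this list, is itself known as a gene of this branch.

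Lists tied to single kinases held genes that rose and genes that fell. The interferon list is tied to EIF2AK2 by the induction of its gene, and does not measure double-stranded RNA, the stimulus of that kinase. Of 19 interferon-stimulated genes, the class EIF2AK2 belongs to, 3 rose, 10 fell and 6 did not pass, with a median of -0.22. IFI6 fell from 775.2 to 308.8 CPM (log2 fold change -1.33), IFI44L from 79.4 to 30.4 CPM (-1.38) and IFI44 from 94.0 to 42.2 CPM (-1.16), whereas IRF1 rose from 45.1 to 69.9 CPM (0.63). Of 10 genes of heme synthesis and breakdown, which set the ligand of EIF2AK1, 4 rose, 1 fell and 5 did not pass (median 0.13). Beside both lists, 17.7% of all tested genes rose and 16.6% fell, and neither list was tested as a set. Among those that rose were the heme oxygenase gene HMOX2 (0.32, adjusted p = 0.0078 by edgeR) and ALAS1, the first enzyme of synthesis (0.32, 0.017), and ALAD, a later enzyme of synthesis, fell (-0.34, 0.026). None of the 10 exceeded a log2 fold change of 0.5.

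The genes with the most similar profiles were found by the Euclidean distance of log2 CPM centred on the sgCtrl mean, over the 6 libraries and all tested protein-coding genes. For PPP1R15A these were FSTL3, a secreted follistatin-like protein (distance 0.133, 57.5 to 125.7 CPM, log2 fold change 1.13), and HKDC1, a hexokinase-like gene (0.141, 19.8 to 43.7 CPM, 1.14). For EIF2AK3 they were CEMIP2 (distance 0.132, log2 fold change -0.74) and AHI1 (0.148, -0.72). The nearest to the genes that did not pass were COQ10A and NCEH1 for EIF2AK1, HIPK3 and MAP1B for EIF2AK2, NBAS and KNSTRN for EIF2AK4, and RNF19A and MAP3K4 for PPP1R15B, at distances of 0.0489 to 0.0966. None of these 8 passed the edgeR test. All neighbours were picked for small distances over the same 6 libraries. Fold changes near those of the 6 genes follow from that choice and are not a separate result.

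The 2 calls held under all 13 other settings of the count test. PPP1R15A stayed between 1.02 and 1.10 on the log2 scale, EIF2AK3 between -0.83 and -0.63, and the other 4 genes passed under none of the settings.

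**Figure D4:**
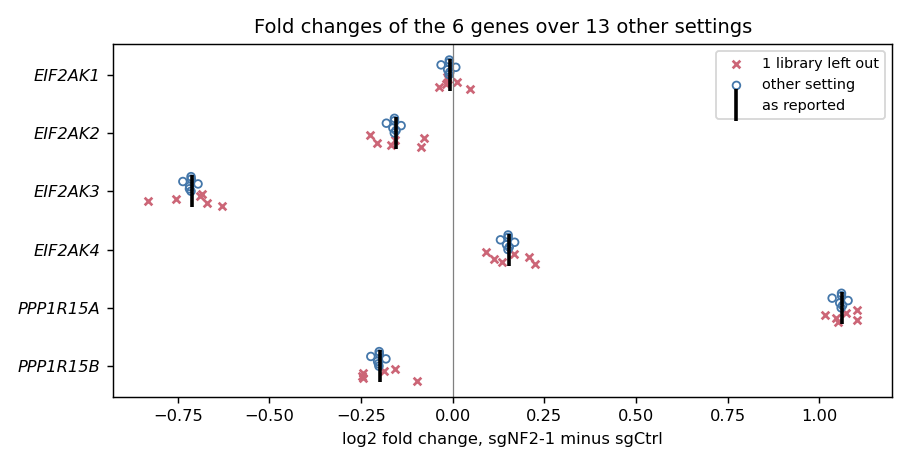
Log2 fold change of each of the 6 genes (horizontal axis) as reported (black bar), with 1 library left out (crosses) and under other settings of the test (open circles). EIF2AK3 stays between -0.83 and -0.63 and PPP1R15A between 1.02 and 1.10, while EIF2AK1 lies on both sides of 0.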

How the data were processed

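RNA of 3 sgCtrl and 3 sgNF2-1 libraries was sequenced by the authors as paired-end reads on a NovaSeq instrument. Raw counts of reads on each gene were deposited by the authors together with FPKM, the count scaled by gene length and library depth. The submitters' processing notes name HISAT2, StringTie 1.3.3b, featureCounts 1.5.0-p3 and hg38, and whether counting used strand is not given in the sources used here. Groups and replicate numbers came from the sample titles. Counts were filtered with filterByExpr (minimum count 10, minimum total 15), scaled by TMM and fitted with edgeR 4.0.16 (R 4.3.3) on the group, over all 14179 genes left, with Benjamini-Hochberg adjustment. DESeq2 1.42.0, the authors' tool, was an alternative, as were other scalings and filters, a replicate block, protein-coding genes only, the fold limit of 0.5 and leaving out each library. FPKM was tested with limma 3.58.1 on log2(FPKM + 1) for genes with a mean of at least 0.5, the alternatives being a pseudocount of 0.1, all genes unfiltered, the replicate block and 1 library left out in turn. Procedures were tested on simulated counts. The genes, lists, motifs and tests were chosen with earlier results of these data known, and lists are described by counts and medians. The genes named are the 6, NF2, all eIF2, eIF2B and PP1 genes, of each other list the 3 with the smallest adjusted p and the extremes of fold change, and the 2 nearest profiles of each gene. Markers beyond this rule, overlapping genes and PPP1R13L were named after their values were seen. A result that this rule selects is left out here.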

Additional observations from a re-analysis of the deposited data

How the results depend on the processing

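Of 392 values recomputed under the alternatives, 351 gave the same call or a value of the same size, 37 moved and 4 changed sign. The sign changes were all of EIF2AK1, whose log2 fold change was 0.0085 with no expression filter and -0.039 to 0.048 with 1 library left out, above 0 without sgCtrl replicate 3 (0.013) and without sgNF2-1 replicate 3 (0.048). Its FPKM difference was -0.057 to 0.031 with 1 library left out, above 0 without sgNF2-1 replicate 3. PPP1R15A and EIF2AK3 also passed limma under all 9 FPKM alternatives, with differences of 0.96 to 1.05 and -0.72 to -0.51.

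With the fold limit of 0.5 the calls over all genes were 1194 higher and 1322 lower. In the lists that limit left 0 higher eIF2 and eIF2B genes, 0 lower kinase regulators, 0 lower ATF4 branch genes, 1 higher and 4 lower interferon-stimulated genes, and 0 higher and 0 lower heme genes. Lower kinase regulators numbered 2 under DESeq2, library totals, at least 10 counts in every library, the replicate block and protein-coding genes only. Lower heme genes numbered 2 with library totals and with the replicate block, and 0 with no filter. With 1 library left out, 2 to 4 eIF2 and eIF2B genes were higher, 0 to 1 PP1 genes, 0 to 1 kinase regulators, 2 to 3 heme genes and 1 to 2 other sensors of endoplasmic reticulum stress, and 1 to 2 kinase regulators, 0 to 1 ATF4 branch genes and 0 to 2 heme genes were lower. The counts that moved were those without sgCtrl replicate 2, sgNF2-1 replicate 1 or sgNF2-1 replicate 2 (eIF2 and eIF2B, 2), without sgNF2-1 replicate 1 (PP1, 1), without sgCtrl replicate 3 (kinase regulators, 1 higher and 2 lower), without sgCtrl replicate 2 or sgNF2-1 replicate 1 (ATF4 branch, 0 lower), without sgCtrl replicate 1 or 2 (heme, 2 higher and 0 lower), without sgNF2-1 replicate 2 (heme, 0 lower), and without sgCtrl replicate 3 or sgNF2-1 replicate 3 (heme, 2 lower, and stress sensors, 2 higher). The cause was not tested. As a ratio of counts with no length scaling, PPP1R15A to PPP1R15B was 0.763 in sgCtrl and 1.85 in sgNF2-1.

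Same-numbered samples did not deviate together (correlations of -0.03, 0.06 and 0.05), so the numbers are not taken to pair the samples. The replicate block changed no call of the 6 genes, and gave 1 higher kinase regulator in place of 0. Library totals moved the median log2 fold change of all genes from -0.00 to -0.03, and the share of calls that were higher from 51.7% to 46.9%. With 3 libraries a group, changes of the size of the EIF2AK2, EIF2AK4 and PPP1R15B values did not pass after adjustment over all tested genes. Before adjustment the PPP1R15B interval ended just below 0, and those of EIF2AK2 and EIF2AK4 included 0.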
